A study of Oryza sativa Japonica Group with 6 samples.

Results

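The 9 cellulose synthase genes OsCESA1 to OsCESA9 were taken by their MSU locus identifiers from 55986 loci, and all 9 passed the filter on low values that left 22841 loci for testing. They were followed in young rice seedlings whose buds had reached about 5 mm and which were then held at 2 °C for 3 h. Zhonghua17, a japonica rice, served without a transgene as the control (ZH17). The overexpression plants (OEZ) carried the IL112 allele of the lipid transfer protein gene OsLTPL159 in the same variety, driven by the 35S promoter of cauliflower mosaic virus. Each genotype had 3 biological replicates, and each was a pool of 50 plants. All 6 pools were chilled, so the values hold no unchilled reference, and OEZ is called a line in the study's text and lines in the series description, so the number of lines in the pools is uncertain.

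Plant cellulose is spun into the wall by complexes in the plasma membrane whose catalytic subunits are CESA proteins. These subunits join glucose from UDP-glucose into β-1,4-glucan chains, which crystallise into microfibrils. In rice, CESA4, CESA7 and CESA9 are the subunits of secondary wall synthesis, in vessels, fibres and other thickened cells, and loss of any of them gives brittle culms. CESA1, CESA2, CESA3, CESA5, CESA6 and CESA8 are grouped with the primary wall of growing cells. For these pools the study names early seedlings, without saying which parts were taken. In such seedling tissue, fewer cells of a type and less RNA per cell cannot be told apart.

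Expression was measured by RNA-seq and given as FPKM (fragments per kilobase of exon relative to all mapped fragments), so that levels of different genes can be set side by side within a library. The FPKM of a library summed to between 856329 and 902931, and the relative depth estimated from low values lay between 1.0 and 1.32. Read numbers are unknown. Profiles correlated at Pearson's r of 0.959 to 0.968 between pools of 1 genotype and 0.946 to 0.953 across genotypes, as a description over all tested loci. The introduced gene OsLTPL159 (LOC_Os10g36160) was at 141, 138 and 131 FPKM in ZH17 and at 2506, 2540 and 2502 FPKM in OEZ, in accord with the labels. Alpha-amylase genes of the germinating grain stood apart between pools. The summed FPKM of 7 of these genes was 82.3, 219 and 156 in the ZH17 pools and 1.89, 233 and 2.05 in the OEZ pools, by replicate number, with 3 of the 7 genes listed at 0 in each of OEZ replicates 1 and 3. The summed FPKM of 8 storage protein genes of the grain was 4.04, 32.8 and 28.3 in ZH17 and 2.26, 89.7 and 1.94 in OEZ, with 5 of the 8 at 0 in OEZ replicates 1 and 3. By both sums the signal of grain tissue was thus lowest in OEZ replicates 1 and 3. ZH17 replicate 1 was close to them in the storage protein sum but not in the alpha-amylase sum. Not every marker followed the sums, as AMY2A was at 0.744, 0.355 and 0.800 FPKM in OEZ replicates 1, 2 and 3.

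The cellulose synthases were among the well expressed genes of these seedlings, and CESA1 led them in every pool. CESA1 (LOC_Os05g08370, chromosome 5), required for primary walls, was at 328, 327 and 309 FPKM in ZH17, above 98.5% of tested loci by its mean over the 6 pools. It was followed in ZH17 by CESA8 (LOC_Os07g10770, chromosome 7) with a mean of 235 ± 2.09 FPKM (SD, n = 3) and by CESA3 (LOC_Os07g24190, chromosome 7) with 136 ± 9.68 FPKM. These 3 genes made up 78.7% ± 1.95 of the summed primary wall FPKM in ZH17 and 79.3% ± 0.0673 in OEZ. Their order, CESA1 over CESA8 over CESA3, held in all 6 pools with no overlap between the ranges.

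The remaining primary wall genes covered a wide range. In ZH17, CESA6 (LOC_Os07g14850, chromosome 7) averaged 96.1 ± 13.3 FPKM, CESA5 (LOC_Os03g62090, chromosome 3) 69.5 ± 6.12 FPKM and CESA2 (LOC_Os03g59340, chromosome 3) 22.6 ± 2.28 FPKM. CESA2 was the lowest of the 9 in every pool. The 3 secondary wall genes lay between CESA5 and CESA2 in ZH17 and close to each other, with 53.3 ± 2.16 FPKM for CESA7 (LOC_Os10g32980, chromosome 10), 49.9 ± 3.04 FPKM for CESA4 (LOC_Os01g54620, chromosome 1) and 49.3 ± 2.59 FPKM for CESA9 (LOC_Os09g25490, chromosome 9). CESA7 was above CESA4 in 3 of 3 ZH17 pools although their ranges overlapped, and CESA4 was above CESA9 in 1 of 3, so that CESA4 and CESA9 were not separated in the control plants. In OEZ the order changed at CESA9 alone, which moved from place 8 to place 5, level with CESA6. CESA6 was above CESA9 in 2 of 3 OEZ pools and their ranges overlapped.

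**Figure D1:**
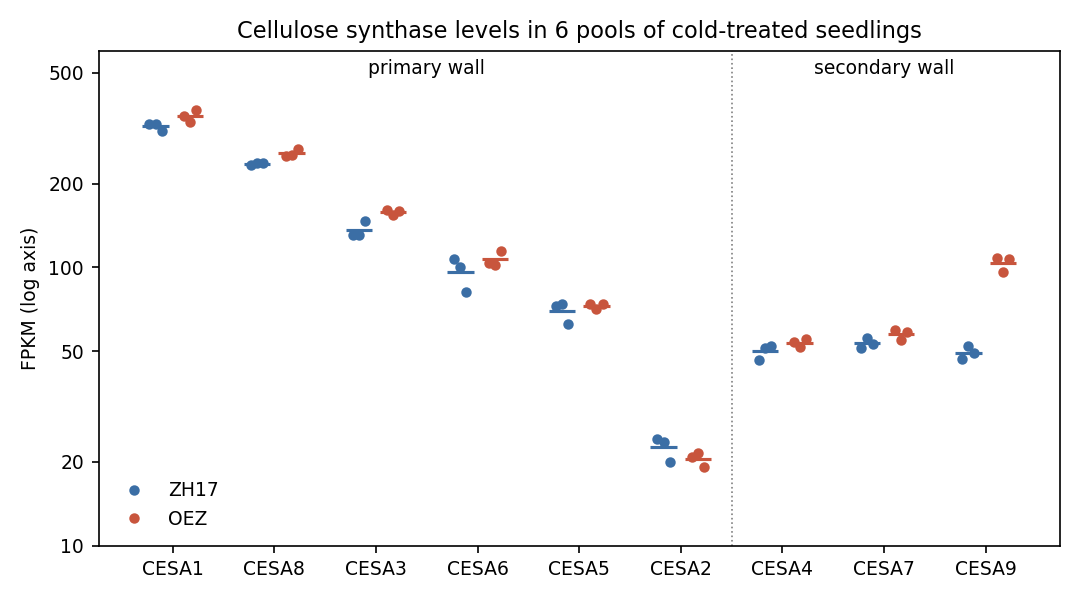
FPKM (log axis) of the 9 cellulose synthase genes in 3 ZH17 and 3 OEZ pools, with each pool as a point and the mean of a genotype as a bar, primary wall genes to the left and secondary wall genes to the right. CESA1 is highest and CESA2 lowest in each pool, and CESA9 is the gene whose OEZ points, 96.4 to 107.9 FPKM, stand far above its ZH17 points, 46.9 to 52.0 FPKM.

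To see which cellulose synthases differed between the overexpression and the control plants, the log2 difference of OEZ minus ZH17 was tested for all 22841 loci with limma. CESA9 was the member that rose. It was at 46.9, 52.0 and 49.2 FPKM in ZH17 and at 107.9, 96.4 and 107 FPKM in OEZ replicates 1, 2 and 3. All OEZ pools were higher than all ZH17 pools, and OEZ replicate 2 was the lowest of the OEZ pools. The mean rose from 49.3 ± 2.59 to 104 ± 6.40 FPKM (SD, n = 3), a log2 difference of 1.07 with an SE of 0.07 and a 95% interval of 0.91 to 1.23 (limma, Benjamini-Hochberg adjusted p = 0.00052). The exact two-sided permutation test gave p = 0.1, the smallest that 3 pools against 3 allow. Of the tested loci, 1.79% had a larger log2 difference.

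Thus 1 of the 9 members passed both thresholds, which were an adjusted p under 0.05 and a change of 1.5-fold or more, in the upward direction, and 0 passed downward. Over all tested loci, 2.98% were called, 1.56% as higher and 1.42% as lower in OEZ. At an unadjusted p under 0.05 (limma), 3 members were counted, CESA9, CESA3 and CESA8. The share of all tested loci at that level was not counted, so no excess among the members can be read from this count. The groups did not overlap for 4 members, CESA1, CESA3, CESA8 and CESA9, all higher in OEZ. Among all tested loci 16.0% were separated in that direction and 13.2% in the other, in which 0 members were separated. Of the 9 log2 differences 8 were positive, beside 53.3% of all tested loci, and their median was 0.12, beside 0.02 over all tested loci. Without CESA9 the median of the other 8 was 0.12, which lay inside the middle range of all loci, from -0.15 at the lower to 0.17 at the upper quartile.

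The 3 most abundant members had separate ranges in the genotypes but small differences. CESA3, at 130, 131 and 147 FPKM in ZH17 and 160, 155 and 159 FPKM in OEZ, had a log2 difference of 0.22 (SE 0.06, 95% interval 0.07 to 0.37, limma adjusted p = 0.094). CESA8 was at 233, 236 and 237 FPKM in ZH17 and at 252, 253 and 267 FPKM in OEZ, a log2 difference of 0.13 (SE 0.05, 95% interval 0.01 to 0.24, limma adjusted p = 0.18). CESA1 was at 351, 333 and 368 FPKM in OEZ against the ZH17 values above, a log2 difference of 0.12 (SE 0.06, 95% interval -0.01 to 0.26, limma adjusted p = 0.26). For these genes every OEZ pool was above every ZH17 pool, and none of the differences passed the thresholds. The upper ends of their intervals stayed below a 1.5-fold change. Among the alternatives, CESA3 passed the adjusted p only without ZH17 replicate 3 (log2 difference 0.28, limma adjusted p = 0.025), still under a 1.5-fold change.

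In the other primary wall genes the pools of the genotypes overlapped. CESA6 was at 107, 100.3 and 81.3 FPKM in ZH17 and 104, 102 and 115 FPKM in OEZ (log2 difference 0.16, 95% interval -0.09 to 0.41, limma adjusted p = 0.41). CESA5 was at 72.4, 73.6 and 62.4 FPKM in ZH17 and 73.8, 70.8 and 73.6 FPKM in OEZ (log2 difference 0.07, 95% interval -0.10 to 0.24, limma adjusted p = 0.61). For both genes ZH17 replicate 3 was the lowest pool, and without it the log2 difference of CESA5 was -0.01 (limma adjusted p = 0.96). CESA2, the only member with a negative difference, was at 24.2, 23.6 and 19.97 FPKM in ZH17 and 20.8, 21.5 and 19.2 FPKM in OEZ (log2 difference -0.14, 95% interval -0.35 to 0.08, limma adjusted p = 0.42).

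**Figure D2:**
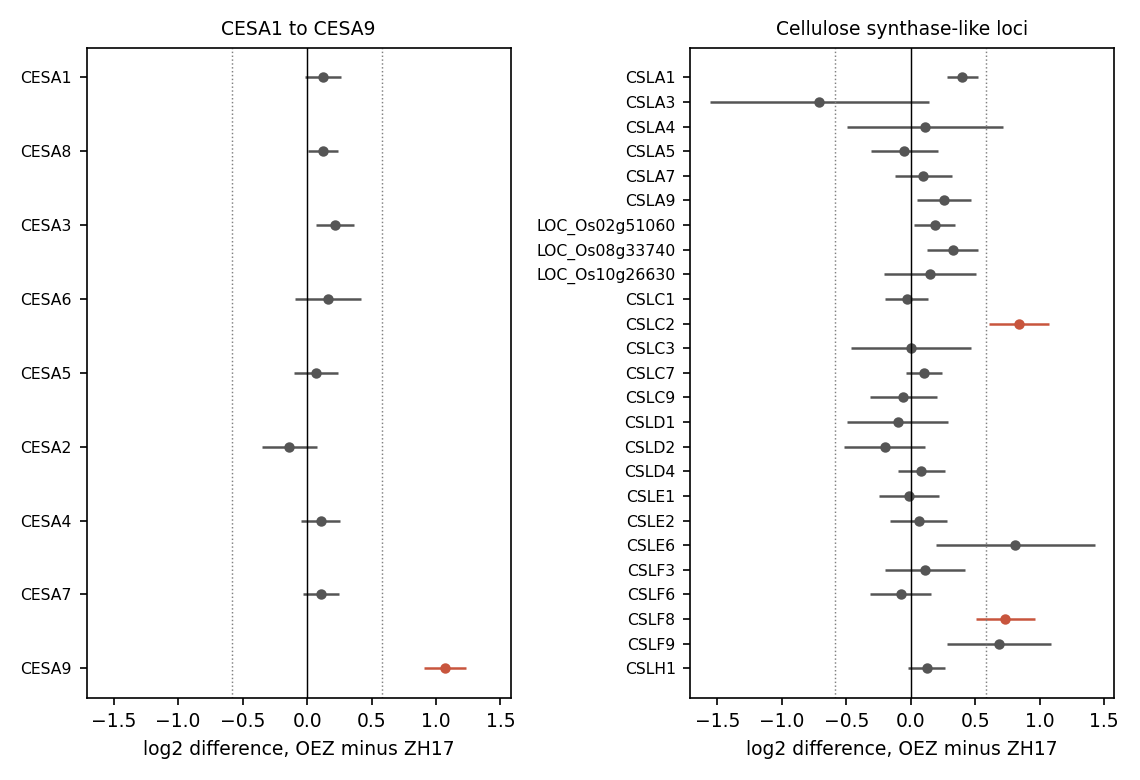
Log2 difference of OEZ minus ZH17 with its 95% interval from limma for the 9 cellulose synthases (left) and the 25 tested cellulose synthase-like loci (right), with dotted lines at a 1.5-fold change and red for loci that passed both thresholds. CESA9 at 1.07 is the one red member on the left, and CSLC2 at 0.84 and CSLF8 at 0.73 are red on the right.

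CESA4, CESA7 and CESA9 are not redundant in rice, and their proteins are thought to work in the same complex, so the levels of the 3 genes were compared within each pool. CESA4 was at 46.4, 51.2 and 52.0 FPKM in ZH17 and at 53.9, 51.6 and 55.4 FPKM in OEZ. CESA7 was at 51.4, 55.7 and 52.9 FPKM in ZH17 and at 59.5, 54.7 and 58.6 FPKM in OEZ. The pools of the genotypes overlapped for both genes, in contrast to CESA9. Their log2 differences were 0.10 for CESA4 (95% interval -0.05 to 0.26, limma adjusted p = 0.38) and 0.11 for CESA7 (95% interval -0.03 to 0.25, limma adjusted p = 0.31), and both intervals ended below the lower end of that of CESA9.

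In the control plants the 3 secondary wall genes were thus at about equal levels, and in the overexpression plants CESA9 stood apart. The ratio of CESA9 to the mean of CESA4 and CESA7 was 0.958, 0.973 and 0.937 in the ZH17 pools. In the OEZ pools it was 1.90, 1.81 and 1.88. The ranges did not overlap, and the spread within a genotype was small against the gap, with an SD of 0.0183 in ZH17 and 0.0465 in OEZ. The ratio of CESA7 to CESA4 was 1.07 ± 0.0476 in ZH17 and 1.07 ± 0.0263 in OEZ.

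**Figure D3:**
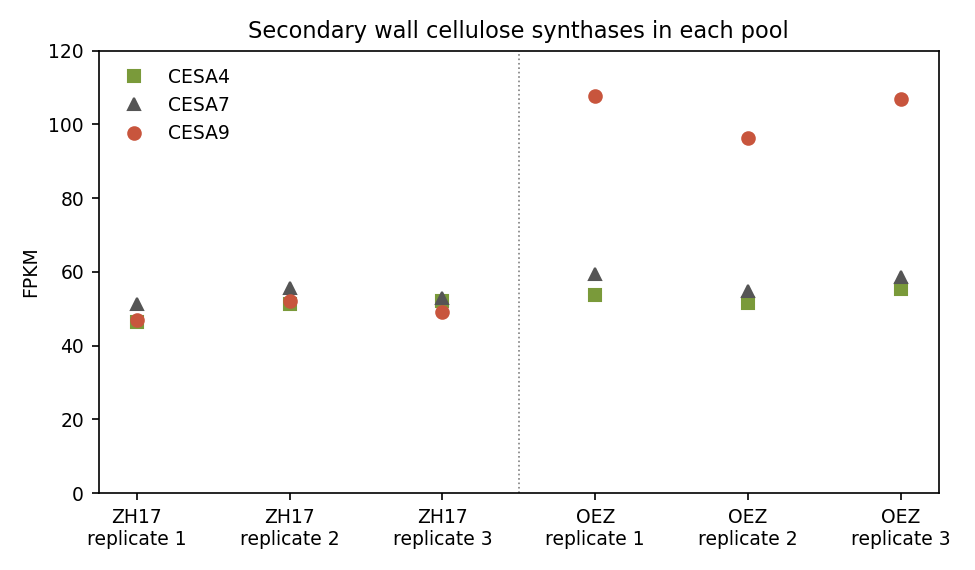
FPKM of CESA4, CESA7 and CESA9 in each of the 3 ZH17 and 3 OEZ pools, with 1 point for each gene and pool. The 3 genes lie between 46.4 and 55.7 FPKM in ZH17, whereas in OEZ CESA9 lies at 96.4 FPKM or more with CESA4 and CESA7 at 51.6 to 59.5 FPKM.

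Summed over members, the primary wall genes amounted to 881 ± 20.9 FPKM in ZH17 and 966 ± 34.2 FPKM in OEZ (SD, n = 3), and the secondary wall genes to 153 ± 7.24 and 215 ± 10.6 FPKM. The secondary wall sum was 1.41-fold higher in OEZ, and 1.08-fold when only CESA4 and CESA7 were summed. The secondary to primary ratio had a mean of 0.173 in ZH17 (0.162 to 0.180) and of 0.222 in OEZ (0.217 to 0.230). With CESA4 and CESA7 alone it was 0.117 ± 0.00693 and 0.115 ± 0.00239, and the genotypes overlapped. The higher ratio in OEZ therefore rested on CESA9. These sums are descriptions, and no test was made on them.

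The 9 genes together took 0.120% of the summed FPKM of a library in ZH17 and 0.133% in OEZ, without overlap. CESA9 made up 4.77% ± 0.234 of this cellulose synthase signal in ZH17 and 8.78% ± 0.321 in OEZ. The shares of CESA1, CESA8 and CESA2 were lower in OEZ without overlap, and those of CESA3, CESA4, CESA5, CESA6 and CESA7 overlapped. CESA1 had 31.1% ± 0.503 in ZH17 and 29.7% ± 0.411 in OEZ, and CESA8 22.8% ± 0.574 and 21.8% ± 0.478. The shares add up to the whole, so a larger share of CESA9 lowers the others by construction.

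**Figure D4:**
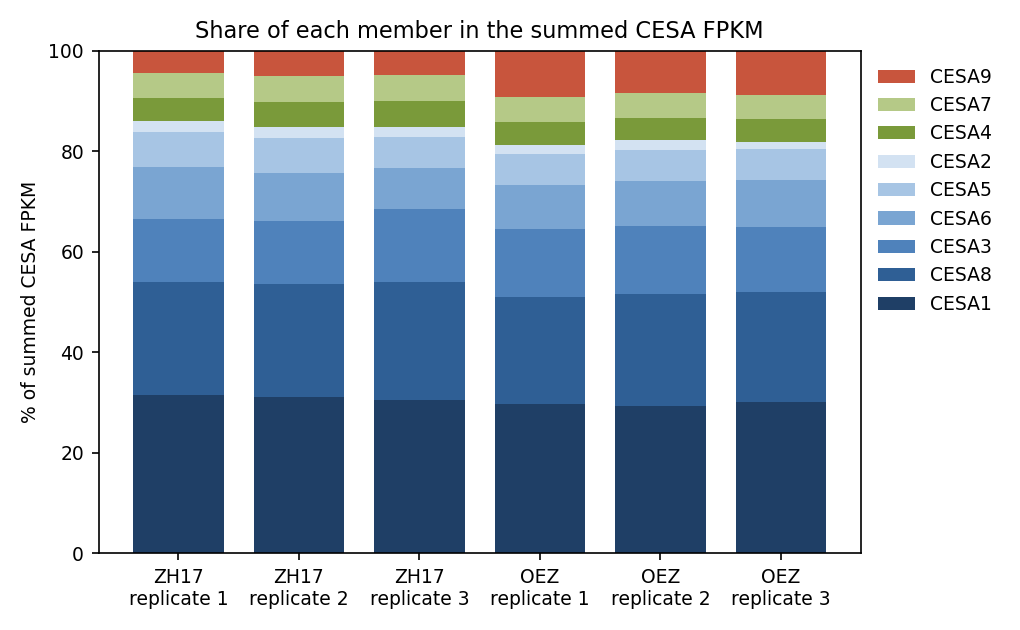
Share of each member in the summed CESA FPKM (%) of each of the 6 pools, stacked with primary wall genes in blue, CESA4 and CESA7 in green and CESA9 in red. The red segment has a mean of 4.77% in the ZH17 pools and 8.78% in the OEZ pools, and CESA1 is the largest segment in each pool.

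CESA9 lies on chromosome 9 among loci that were also higher in OEZ. Locus order was taken from the MSU identifiers. All of the 5 nearest tested loci on each side had positive log2 differences, from 0.43 to 1.74 with a median of 0.83, and 7 of these 10 passed both thresholds. LOC_Os09g25460, described as a transferase family protein, was at 51.3 ± 1.43 FPKM in ZH17 and 87.1 ± 7.24 FPKM in OEZ, a log2 difference of 0.76. LOC_Os09g25570, described as an aspartic proteinase, was at 26.3 ± 1.95 and 47.3 ± 3.57 FPKM, a log2 difference of 0.84. LOC_Os09g25560, of the BT1 family, had a log2 difference of 1.12, and LOC_Os09g25550, a pentatricopeptide protein, one of 0.83. LOC_Os09g25410, LOC_Os09g25420 and LOC_Os09g25500 had log2 differences of 0.92, 0.70 and 0.93 and complete the 7. The 3 neighbours that did not pass were LOC_Os09g25390, a phospholipase D (log2 difference 0.78, limma adjusted p = 0.18), LOC_Os09g25430, a C2H2 zinc finger protein (1.74, limma adjusted p = 0.056), and LOC_Os09g25540 (0.43, limma adjusted p = 0.38). Around the other 8 members the median log2 difference of the 10 nearest tested loci lay between -0.11 and 0.18, and 0 to 2 of the 10 were called.

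The neighbours belong to a longer stretch, from LOC_Os09g24720 to LOC_Os09g27040, which was found in these same libraries and is given as a description. It held 112 tested loci, of which 111 had a positive log2 difference and 82 were called higher, with a median log2 difference of 0.93 and quartiles of 0.75 and 1.10. CESA9, the locus at position 34 of the stretch, had rank 35 of the 112 by log2 difference and rank 12 by mean FPKM. Its log2 difference was 0.14 above the median of the stretch. In OEZ replicates 1, 2 and 3 the log2 level of CESA9 lay 1.13, 0.97 and 1.12 above its ZH17 mean, where the median locus of the stretch lay 0.93, 0.95 and 0.92 above its own. CESA9 was thus close to its neighbours in each OEZ pool. The stretch also held CSLC2 (LOC_Os09g25900), 21 tested loci from CESA9.

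**Figure D5:**
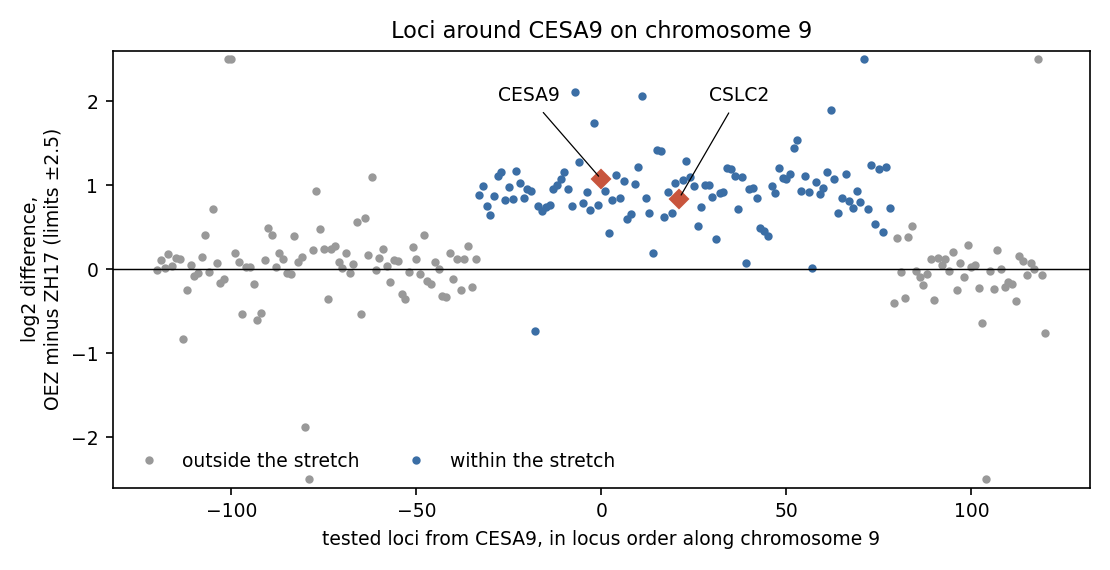
Log2 difference of OEZ minus ZH17 for 241 tested loci of chromosome 9 in locus order around CESA9, with loci of the stretch in blue, loci outside it in grey and CESA9 and CSLC2 as red diamonds; 6 loci beyond 2.5 in either direction are drawn at that limit. The blue points centre on 0.93 and the grey points scatter around 0, and CESA9 lies within the band of its neighbours.

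Members were also followed from pool to pool within the genotypes, as correlations of their deviations from the genotype means over the 6 pools. CESA7 and CESA9 had r = 0.99, CESA4 and CESA9 r = 0.77, and CESA4 and CESA7 r = 0.71. All 3 secondary wall pairs were therefore positive. The 15 pairs of primary wall genes ran from -0.92 (CESA2 and CESA3) to 0.90 (CESA5 and CESA6) with a median of 0.19, and the 18 mixed pairs from -0.75 to 0.64 with a median of 0.16. The points share libraries and depth, and after removal of 2 means only a few degrees of freedom are left, so these values are descriptions.

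Within OEZ, 7 of the 9 members were lowest in replicate 2, the OEZ pool with the highest grain marker sums. That pool also had the lowest summed FPKM of the OEZ pools, 859282 against 902597 and 902931. Its relative depth was the lowest as well, 1.02 against 1.29 and 1.32. Among the ZH17 pools, 5 of the 9 were lowest in replicate 1. The shares of all tested loci lowest in these pools were not counted, and no cause was tested. Set against the 3 ZH17 pools, OEZ replicate 2 alone gave a log2 difference of 0.97 for CESA9, in a fit that assumed its spread to be that of the ZH17 pools. This is 1 pool, and a part of grain tissue in the difference was not tested. For the other 8 members the median log2 difference was 0.05 in that fit. The summed FPKM of 5 root genes was 167, 189 and 186 in ZH17 and 219, 212 and 213 in OEZ. This sum rested mainly on LSI2 (means of 75.1 and 99.0 FPKM) and LSI1 (80.4 and 87.7 FPKM), higher in all OEZ pools. LSI2 passed the adjusted p but lay under a 1.5-fold change (log2 difference 0.40, limma adjusted p = 0.039). For LSI1 the log2 difference was 0.13 (limma adjusted p = 0.24). The genotypes overlapped for the others, LOC_Os04g44060 (log2 difference 0.24), LOC_Os02g37090 (-0.05) and NRT2.1, at 0.09 FPKM in both. A part of root tissue in the differences of the members was not tested.

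Loci whose levels followed the members most closely over the 6 pools were searched among those with a mean of at least 5 FPKM. The mean profile of CESA1, CESA3 and CESA8 was most like LOC_Os11g05370 (r = 0.999), LOC_Os07g32460 (r = 0.998) and LOC_Os01g08814 (r = 0.995), and 229 of 14702 loci reached r = 0.95. The mean profile of CESA4 and CESA7 was most like LOC_Os09g36350 (r = 0.998), LOC_Os01g23620 (r = 0.998) and LOC_Os03g64110 (r = 0.996), and 101 of 14703 loci reached r = 0.95. CESA9 had r = 0.958 with the first profile, at rank 167, and r = 0.805 with the second, at rank 1317. Correlations over both genotypes follow the separation of the genotypes, which CESA1, CESA3, CESA8 and CESA9 share. Within genotypes CESA9 had r = 0.55 with CESA1, 0.41 with CESA8 and 0.20 with CESA3, below its values with CESA7 and CESA4 given above.

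The other genes of cellulose and related wall polysaccharides were read from hand-drawn lists of 59 loci, of which 48 were tested. Of these, 2 were called higher and 0 lower, beside 2.98% of all tested loci, and their median log2 difference was 0.07. Members of the lists to which the annotation used here gave no name are given by locus only. In the list of cellulose assembly, 0 of 8 tested loci were called, with log2 differences from -0.19 to 0.29 and a lowest adjusted p of 0.12. BC1, a COBRA-like protein needed for thick walls, was at 15.0 ± 1.30 FPKM in ZH17 and 18.3 ± 1.25 FPKM in OEZ (log2 difference 0.29, limma adjusted p = 0.12). GLU1, the membrane-bound endo-1,4-β-D-glucanase, was at 8.55 ± 0.302 and 7.47 ± 0.604 FPKM (log2 difference -0.19, limma adjusted p = 0.25). The most abundant loci of this list, LOC_Os05g32110 and LOC_Os09g32080, had log2 differences of 0.14 and 0.12. The truncated cellulose synthase loci gave 1 tested locus of 2, LOC_Os12g29300, with a log2 difference of 0.06.

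The supply of UDP-glucose, the substrate of cellulose synthases, gave 0 calls among 8 tested loci of 9, with a median log2 difference of -0.03. Sucrose synthase SUS1, which makes UDP-glucose from sucrose, was at 1297 ± 74.7 FPKM in ZH17 and 1279 ± 87.5 FPKM in OEZ (log2 difference -0.02, limma adjusted p = 0.90), and LOC_Os09g38030 at 297 ± 2.73 and 306 ± 7.49 FPKM. SUS2 was at 227 ± 23.0 and 186 ± 7.09 FPKM, with every OEZ pool lower (log2 difference -0.29, limma adjusted p = 0.095). Among 6 loci listed as regulators of the secondary wall, 0 were called, and the median log2 difference was 0.33. Of these, LOC_Os06g04090 was at 15.2 ± 1.69 FPKM in ZH17 and 12.7 ± 1.08 FPKM in OEZ (log2 difference -0.25, limma adjusted p = 0.21), and LOC_Os01g18240 at 12.4 ± 1.11 and 14.6 ± 0.498 FPKM (log2 difference 0.24, limma adjusted p = 0.16). In each of these lists 1 locus, SUS4 and LOC_Os08g02300, passed the adjusted p but lay under a 1.5-fold change. Once replicate number was fitted as a block neither passed (limma adjusted p = 0.14 and 0.13). With a pool left out, LOC_Os08g02300 never passed, and SUS4 passed only without OEZ replicate 2. Sucrose synthase SUS4 was at 7.86 ± 0.295 FPKM in ZH17 and 5.52 ± 0.742 FPKM in OEZ (log2 difference -0.51, limma adjusted p = 0.048), with every OEZ pool lower. The listed regulator LOC_Os08g02300 was at 5.96 ± 0.498 and 7.9996 ± 0.294 FPKM (log2 difference 0.42, limma adjusted p = 0.048), with every OEZ pool higher. The OEZ pools were also all higher for LOC_Os08g05520, described as a myb-like protein, at 6.35 ± 1.46 and 9.68 ± 1.41 FPKM, whose log2 difference of 0.62 had a limma adjusted p of 0.12.

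The cellulose synthase-like (CSL) genes, relatives of CESA that make backbones of other wall polysaccharides, gave 2 calls among 25 tested loci of 34, with a median log2 difference of 0.10. CSLC2, of a family known for the glucan backbone of xyloglucan, rose from 16.4 ± 2.21 to 29.2 ± 0.924 FPKM (log2 difference 0.84, SE 0.10, limma adjusted p = 0.0064) and lies in the chromosome 9 stretch. CSLF8, of a grass family that makes mixed-linkage glucan, rose from 6.52 ± 0.655 to 10.9 ± 0.521 FPKM (log2 difference 0.73, SE 0.10, limma adjusted p = 0.0094). CSLF8 had an adjusted p of 0.063 (limma) once replicate number was fitted as a block. The most abundant gene of the same family, CSLF6, was at 126 ± 16.7 FPKM in ZH17 and 119 ± 4.60 FPKM in OEZ (log2 difference -0.08, limma adjusted p = 0.68). CSLF9 of that family was at 2.44 ± 0.392 and 3.97 ± 0.600 FPKM, with every OEZ pool higher (log2 difference 0.68, limma adjusted p = 0.066). CSLC7, the most abundant of its family, was at 25.6 ± 1.30 and 27.4 ± 0.244 FPKM (log2 difference 0.10, limma adjusted p = 0.36).

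In the CSLA family, known for mannan backbones, 0 of 9 loci were called. CSLA1, its most abundant member, was at 121 ± 4.69 FPKM in ZH17 and 160 ± 2.58 FPKM in OEZ, a log2 difference of 0.40 that passed the adjusted p (0.0083, limma) but lay under a 1.5-fold change. With replicate number fitted as a block its adjusted p was 0.067 (limma). The next in abundance, LOC_Os02g51060, was at 22.4 ± 1.27 and 25.4 ± 0.896 FPKM (log2 difference 0.18, limma adjusted p = 0.16). The CSLD, CSLE and CSLH families had 3, 3 and 1 tested loci with median log2 differences of -0.10, 0.06 and 0.12 and 0 calls. Their most abundant genes were CSLD2 and CSLD4 with log2 differences of -0.20 and 0.08, CSLE1 and CSLE2 with -0.01 and 0.06, and CSLH1 with 0.12, and none of these had a limma adjusted p below 0.27. The less abundant CSLE6 was at 3.42 ± 1.32 and 5.81 ± 0.544 FPKM, with every OEZ pool higher (log2 difference 0.81, limma adjusted p = 0.12).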

How the data were processed

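RNA-seq of 6 pools was analysed, 3 of ZH17 and 3 of OEZ, grouped by GEO's labels. The authors mapped the reads with TopHat2 at default settings to the rice genome IRGSP-1.0. They deposited 1 FPKM value per MSU locus and library, calculated with Cuffdiff. Exact tool versions and the strand type of the libraries are not given in the sources used here. How Cuffdiff treated reads shared by related genes is not given either, so values of close paralogs are uncertain to that extent. No read counts are held, and depth is known only as a relative estimate from loci under 0.15 FPKM. Of 55986 loci, 25361 were listed at 0 in all 6 libraries.

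From the FPKM, log2(FPKM + 0.1) was tested with limma 3.58.1 (R 4.3.3), using moderated variances with a trend and Benjamini-Hochberg adjustment over the 22841 loci whose mean over the pools reached 0.5 FPKM. A fold change on this scale understates that of low genes. The thresholds, those of the study, were 1.5-fold and an adjusted p under 0.05. Single genes were also compared by exact permutation tests (Python 3.11.15, pandas 2.3.3, numpy 2.4.6), and plots used matplotlib 3.10.9. On simulated data for this comparison, 173 of 200 loci (86.5%) given a 2-fold change at 5 FPKM or more were recovered. Among the 22559 loci simulated, these 200 included, 4 unchanged loci were called.

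The text names all 9 members, of each list the called loci and the 2 most abundant, the 5 tested loci on each side of CESA9, the ends of the stretch, the 3 loci most like each profile, and OsLTPL159. BC1, GLU1, SUS2, SUS4, LOC_Os08g02300, LOC_Os08g05520, CSLE6, CSLF9, AMY2A and the single root genes were added after their values were seen. Members and lists, the stretch included, were chosen with earlier results of these data known. Gene names were matched to RefSeq synonyms on the same chromosome (9 of 9 members), and descriptions came from the study's supplement. Alternatives were other pseudocounts, filters, scalings and fold criteria, no variance trend, a replicate block, and leaving out pools. Sequences were not analysed here.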

Additional observations from a re-analysis of the deposited data

How the results depend on the processing

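CESA9 kept its call in 17 of 18 alternatives with a test, with log2 differences of 1.03 to 1.12. The exception (0.97), leaving out both OEZ replicates 1 and 3, was chosen after seeing the data. It left 1 OEZ pool, assumed to vary like ZH17, and gave 4 called loci in all (3 higher and 1 lower), 0 members and 0 listed pathway loci, against 681 (357 and 324), 1 and 2. No other member was called in any alternative, and CESA5 alone turned direction (-0.0054 without ZH17 replicate 3, with a range of -0.0054 to 0.11 over pools left out). Without a criterion on fold change 1371 loci (653 higher, 718 lower) and 5 pathway loci were called, and with a 2-fold criterion 290 (175 and 115) and 0. Leaving out each pool in turn gave 327 to 967 calls, 181 to 451 higher and 139 to 516 lower, with 1 member and 2 to 3 pathway loci. The count was 358, 420, 327 and 367 without OEZ replicate 1, 2 and 3 and ZH17 replicate 2. In these fits the primary wall sum was 1.08 to 1.11-fold, the secondary wall sum 1.37 to 1.45-fold and their ratio 1.24 to 1.31-fold. With CESA4 and CESA7 only, the secondary wall sum was 1.08-fold and the ratio 0.98-fold, since CESA9 is left out. Median-ratio and quantile scaling left the median of all loci at 0.01 to 0.02.

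Replicate numbers are shared by the genotypes. Deviations of pools with the same number correlated at r from -0.06 to 0.03, and those of pools with different numbers at -0.05 to 0.04. Whether pools of a number share a batch is not known, and an effect shared by some loci could be missed. With the replicate block 321 loci (201 higher, 120 lower) and 1 pathway locus were called, and CESA9 had an adjusted p of 0.015.

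With 3 pools a genotype, the 95% intervals of the uncalled members reached up to a log2 difference of 0.41, in CESA6. FPKM hold no read numbers, and counting error could not be given.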
